A study of Glycine max with 8 samples.

Results

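Leaves taken after a second drought (DR2) were compared with leaves of the same soybean cultivar taken after 1 day of re-watering (WT2), on 4 of the 8 arrays of the series. The 2 DR2 arrays, DR2_1 and DR2_2, and the 2 WT2 arrays, WT2_1 and WT2_2, were chosen by their sample labels and lay on 1 slide. Seedlings of Glycine max cv. Daepoong, with no transgene or mutation named, had grown for 7 days before water was first withheld for 4 days (DR1). WT2 leaves came from plants of that first drought given water again for 1 day, and DR2 leaves from such plants after a second drought of 4 days. WT1 leaves, from plants that had been watered throughout, and DR1 leaves gave the other 4 arrays. The labels of the DR1 samples give that drought as 4 hours, whereas the treatment protocol and the study's methods give 4 days. Every sample held pooled primary leaves of a number of plants of a single cultivar, and the experiment had been done 2 times independently. DR2 leaves were older than WT2 leaves by the length of the second drought and no watered leaves of their age were hybridised, so drought and leaf age cannot be told apart. Both conditions had the first drought in common.

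As background, a leaf that runs short of water makes abscisic acid (ABA), the hormone that closes stomata. ABA bound to its receptors holds back protein phosphatases of clade A of the PP2C family, which frees SnRK2 kinases to act on transcription factors. Genes under this control include many that encode late embryogenesis abundant (LEA) proteins, which are hydrophilic and protect other proteins in drying cells, and enzymes for protective sugars, whereas photosynthesis and growth genes are commonly turned down.

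The deposited table gave a normalized intensity of 60386 transcripts on every array, on a linear scale, from 1 to 13 probes each with a median of 2. A transcript was called when its mean log2 intensity differed by over 2 between the conditions, which is over 4-fold, with a limma adjusted p under 0.05. Before normalization the DR2 arrays were dimmer, with median spot signals of 87 and 117, against 159.5 and 142.5 on the WT2 arrays. On the DR2 arrays 57.3 and 55.2% of probes were well above background, and on the WT2 arrays 65.2 and 63.9%. No probe was saturated. Replicates correlated at 0.966 in DR2 and 0.976 in WT2 across transcripts, and only 2 arrays a condition limited the precision. Between bulk samples, fewer cells of a type and less RNA per cell cannot be told apart.

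The leaf label was checked against 14 transcripts. Of these, 13 were the chlorophyll a/b binding proteins that also form the light harvesting list below, and the other was a RuBisCO small subunit. Their summed intensity was 11309 and 13842 on the DR2 arrays, against 1061290 and 1107420 on the WT2 arrays. All 14 were well above background in WT2 leaves and fell in DR2 leaves, with a median log2 change of -6.97, and 13 of them had been listed as lower at DR1. None was listed at 0 on any array, and 11 were well above background on both DR2 arrays. Of 22 transcripts of the Cupin_1 family, which holds seed storage globulins and also germin-like proteins, 13 rose and 6 fell. Their summed intensity of 135016 and 74253 in DR2 leaves lay on both sides of the 103557 and 114043 in WT2 leaves, and the part of seed-type transcripts in the results was not tested.

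Among transcripts with a family name, most of which had been listed for a change at DR1, most NAC, WRKY, PP2C and trehalose transcripts were higher in DR2 leaves, and nearly all photosynthesis and most aquaporin and expansin transcripts were lower. In DR2 leaves 7619 transcripts of 6431 loci were higher, 12.6% of those tested, and 8983 transcripts of 7933 loci were lower, 14.9%, so that 27.5% were called in either direction. The called rises had a median log2 change of 2.83 and the called falls of -2.98. A change over 16-fold was seen for 1586 of the rises and 2225 of the falls, and a change over 64-fold for 342 and 443. Without the limit on the change, 39342 transcripts, 65.2%, had an adjusted p under 0.05. The median change of all transcripts was 0.02. Normalization had brought the array medians close together, to 232.5 and 226.1 in DR2 and 231.5 and 231.6 in WT2 leaves. A centre near 0 can thus follow from the normalization, and whether rises and falls balanced in the leaves was not tested. For every called transcript the DR2 and WT2 values did not overlap, and without any call the DR2 values were all above the WT2 values for 40.3% of transcripts and all below for 39.8%.

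**Figure D1:**
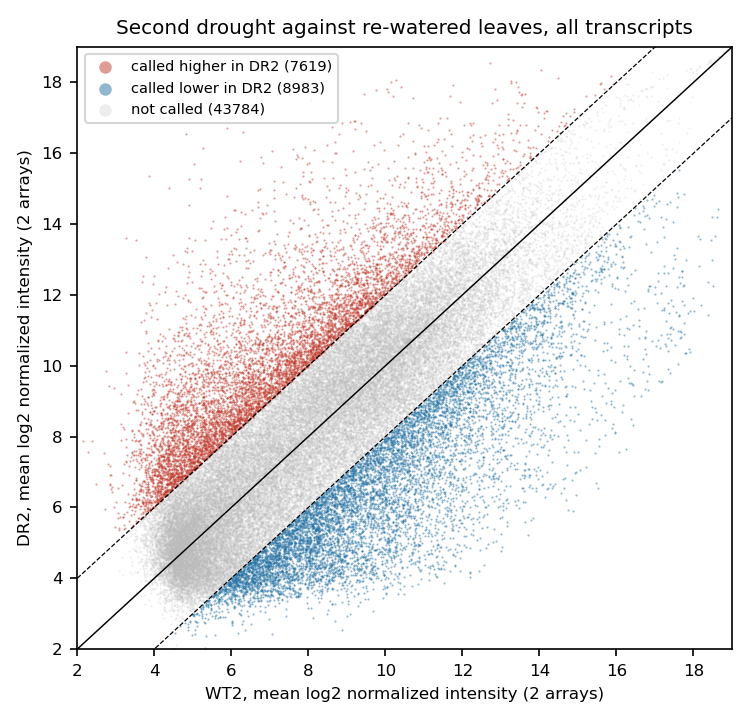
Mean log2 normalized intensity of each of 60386 transcripts in DR2 leaves (y axis, 2 arrays) against WT2 leaves (x axis, 2 arrays), with dashed lines at 4-fold. The 7619 transcripts called higher in DR2 (red) lie above the upper line at all but the highest WT2 intensities, and the 8983 called lower (blue) reach up to the highest WT2 intensities.

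The limit of 4-fold cut through a dense range. Within 0.1 of it on the log2 scale lay 1281 changes just inside and 1308 just outside, while 37 changes over 4-fold missed the adjusted p. Detection differed too. Transcripts with a probe well above background on both WT2 arrays and on neither DR2 array numbered 6260, and those with one on both DR2 arrays and on neither WT2 array 1320. Among the called falls 2740 were not well above background on either DR2 array, and 1290 of these had a lower bound over 4-fold. Among the called rises 1248 were not well above background on either WT2 array, and 907 of these had such a bound. With all of them set to their bounds the median rise was 2.76 and the median fall -2.74.

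The 2 re-watered arrays differed in a way that touched the responsive transcripts. Of the transcripts called higher in DR2 leaves, 69.0% were brighter on WT2_1 than on WT2_2, and of those called lower 23.8%, against 45.8% of all transcripts. The median distance of the called rises was 2.70 from WT2_1 and 3.03 from WT2_2, and that of the called falls -2.84 and -3.14. On WT2_1 the drought-responsive transcripts thus lay nearer to their DR2 levels. Without WT2_1 the counts were 8513 higher and 9722 lower, and without WT2_2 6741 and 8333.

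The largest rises among transcripts detected on all 4 arrays were led by a protease inhibitor. Glyma.08G235400-1, a member of the Kunitz family of protease inhibitors, had a normalized intensity of 171241 and 189079 in DR2 leaves, against 60.4 and 29.9 in WT2 leaves. This was a log2 change of 12.05 ± 0.38 (SE of the fit over all 8 arrays, n = 2 arrays each, limma adjusted p = 1.14e-06). The transcript was dim but detected in WT2 leaves and bright in DR2 leaves. Its neighbour in numbering, Glyma.08G235300-1, also a Kunitz inhibitor, had 52160.1 and 53565 in DR2 leaves and 38.0 and 28.6 in WT2 leaves, a log2 change of 10.65 ± 0.28. Near-identical family members can share probes, so the levels of such neighbours are uncertain. Over the whole Kunitz list of 9 transcripts, 4 rose and 3 fell, among them Glyma.08G341700-1 with 43.7 and 48.1 in DR2 leaves, well above background on 1 of the 2 arrays, and 4259 and 5810.44 in WT2 leaves, a log2 change of -6.76 ± 0.32.

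Glyma.15G206800-1, whose Arabidopsis equivalent belongs to glycosyl hydrolase family 18, the family of chitinases, had 253843 and 264606 in DR2 leaves, against 1262 and 50.4 in WT2 leaves. Here the 2 WT2 values lay far apart, and the log2 change of 10.01 ± 1.19 was 12.33 without WT2_1 and 7.68 without WT2_2. Glyma.U020300-1, a Cupin_1 protein, had 62535 and 24637 in DR2 leaves and 43.6 and 31.9 in WT2 leaves (10.04 ± 0.43). Another 4 transcripts of the largest rises, Glyma.15G211500-1, Glyma.04G035000-1, Glyma.12G100500-1 and Glyma.08G177200-1, have no annotation in the tables used here, with log2 changes between 9.11 and 10.30.

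Several of the strongest rises were of transcripts below detection in WT2 leaves. Glyma.01G217600-1 had 156680 and 130889 in DR2 leaves, while neither WT2 array showed it well above background (16.5 and 10.1), which made it at least 5442-fold higher. Glyma.13G278000-1 was at least 1600-fold, Glyma.11G198500-1 at least 1231-fold, Glyma.19G076800-1 at least 479-fold and Glyma.07G258200-1 at least 460.2-fold higher in DR2 leaves. In these bounds the dimmer condition is set to the lowest intensity of any transcript whose probes were all well above background, 40.22 and 50.97 on the DR2 arrays and 25.93 and 26.72 on the WT2 arrays. None of the 5 transcripts is annotated in the tables used here.

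The 10 largest falls included 3 lipid transfer-like and 2 Cupin_1 proteins. Glyma.17G212200-1, of the Hydrophob_seed family of lipid transfer-like proteins, had 178 and 225 in DR2 leaves, against 65717 and 92678 in WT2 leaves (-8.61 ± 0.28). Glyma.14G115500-1 of the same family had 176 and 203 in DR2 leaves and 56617 and 82453 in WT2 leaves (-8.50 ± 0.28). For both, no DR2 value came near a WT2 value. The third of this family, Glyma.06G067000-1, changed by -8.14 ± 0.32. Glyma.09G231900-1, an inhibitor of invertase or pectin methylesterase, had 88.4 and 121 in DR2 leaves and 38624 and 53838 in WT2 leaves (-8.79 ± 0.28). Glyma.07G038500-1 and Glyma.16G007700-1, of the Cupin_1 family, changed by -8.61 ± 0.34 and -8.50 ± 0.36. Glyma.06G084200-1, of the PNP_UDP_1 family of nucleoside phosphorylases, to which bark storage proteins of poplar belong, had 46.1 and 53.3 in DR2 leaves, against 12349 and 16240.4 in WT2 leaves. The largest fall among transcripts detected on all 4 arrays, -8.99 ± 0.25 in Glyma.05G011200-1 with 106 and 81.3 in DR2 leaves and 42474 and 52464 in WT2 leaves, belonged to a transcript with no annotation here, as did those of Glyma.02G282300-1 (-8.97 ± 0.23) and Glyma.15G057600-1 (-8.11 ± 0.24).

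**Figure D2:**
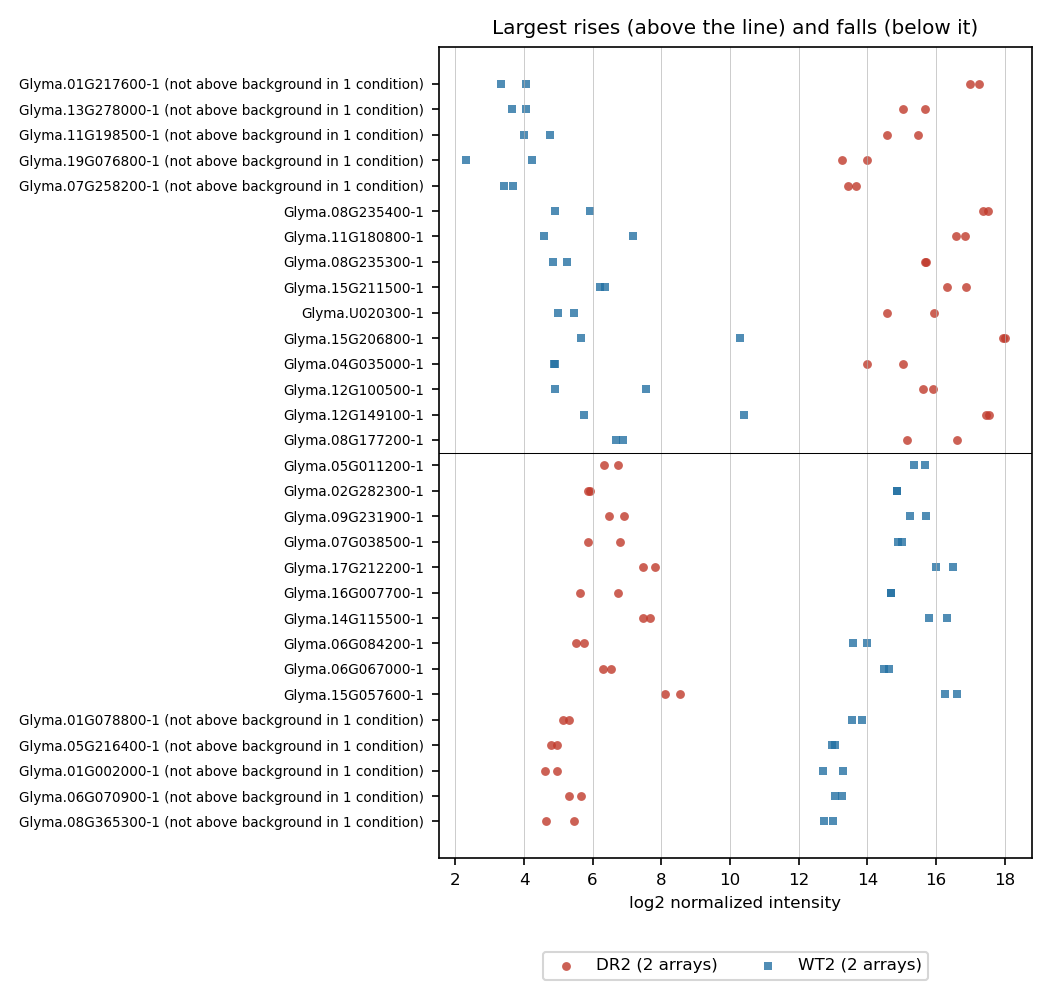
Log2 normalized intensity on the 2 DR2 arrays (red circles) and the 2 WT2 arrays (blue squares) of the transcripts with the largest rises, above the line, and the largest falls, below it. The groups do not overlap for any of them, and the WT2 squares lie farthest apart for Glyma.15G206800-1 and Glyma.12G149100-1.

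Another set of falls was of transcripts below detection in DR2 leaves. Glyma.01G078800-1, also of the Hydrophob_seed family, was not well above background on either DR2 array (39.6 and 35.3), against 12151 and 14739.6 in WT2 leaves, so that it was at least 296-fold lower in DR2 leaves. Glyma.05G216400-1, whose Arabidopsis equivalent is the endoglucanase-type glycosyl hydrolase GH9C2, was at least 183-fold lower. Glyma.01G002000-1, with a zf-FLZ zinc finger, was at least 182-fold and Glyma.06G070900-1, of the DUF642 family of cell wall proteins, at least 180.4-fold lower.

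The gene lists that follow were put together by protein family name (Pfam) and by organelle. Family names were at hand for 3665 transcripts, most of them because the study had listed them for a change between DR1 and WT1, so the direction of a list at the second drought is not independent evidence of that list's response. Of the 3665, 32.9% were higher and 36.5% lower in DR2 leaves, which is the fitting background for the lists. Together the nuclear lists held 476 transcripts, of which 195 rose, 172 fell and 109 were not called.

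Of the ABA synthesis genes described here, the equivalents of ABA2, NCED3 and NCED5 rose in DR2 leaves. Glyma.11G180800-1, the equivalent of Arabidopsis ABA2, the xanthoxin dehydrogenase of ABA synthesis, had 97609.7 and 118941 in DR2 leaves, against 145 and 24.1 in WT2 leaves, a log2 change of 10.83 ± 0.75 (adjusted p = 1.21e-05). Glyma.08G176300-1, the equivalent of NCED3, a 9-cis-epoxycarotenoid dioxygenase that makes the committed step of ABA synthesis, had 243090 and 233506 in DR2 leaves, against 9240.41 and 202 in WT2 leaves. Its log2 change of 7.45 ± 1.41 was 10.21 without WT2_1 and 4.69 without WT2_2, as the 2 WT2 values lay far apart. Glyma.08G255400-1, the equivalent of NCED5, had 1503 and 998 in DR2 leaves and 30.2 and 11.5 in WT2 leaves, well above background on 1 of the 2 WT2 arrays, a log2 change of 6.04 ± 0.43. The other member of the ABA synthesis list, Glyma.05G140900-1 of the same RPE65 family, had 226 and 48.4 in DR2 leaves and 95.4 and 126 in WT2 leaves, and the values overlapped. An enzyme of ABA breakdown rose too. Glyma.16G109300-1, the equivalent of the ABA 8'-hydroxylase CYP707A1, had 1433 and 2121 in DR2 leaves, against 47.0 and 27.9 in WT2 leaves (5.59 ± 0.32). It was well above background on 1 of the 2 WT2 arrays.

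Among the 6 transcripts of the Polyketide_cyc2 family, which holds the ABA receptors and related proteins, 2 fell and 0 rose, with 0 higher at an unadjusted limma p under 0.05 as well. Glyma.01G009200-1 was at least 13.5-fold lower, with no signal well above background in DR2 leaves, against 488 and 769.83 in WT2 leaves, and Glyma.14G056300-1 had 283 and 96.1 in DR2 leaves, against 876 and 1299.66 in WT2 leaves (-2.69 ± 0.67). All 6 had been listed as lower at DR1, and the share of falls was near the 36.5% of all transcripts with a family name. Without DR2_1 the count of falls was 5, without DR2_2 1 and without WT2_1 4. Among 39 PP2C transcripts of 27 loci, 29 rose and 4 fell, with a median log2 change of 4.10, and 27 had been listed as higher at DR1.

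The strongest PP2C rise was that of Glyma.11G018000-1, with a log2 change of 7.13 ± 0.58 and of 7.23 ± 0.67 for the entry of its unique exon. That entry had 10684 and 8601 in DR2 leaves and 150.05 and 27.2 in WT2 leaves, well above background on 1 of the 2 WT2 arrays. The unique-exon entries of Glyma.02G228200-1 and Glyma.14G195200-1 rose by 6.68 and 6.56. Glyma.14G162100-1 was already bright on WT2_1, with 42019 and 60788 in DR2 leaves against 6975 and 638 in WT2 leaves, and its change of 4.58 ± 0.90 was 6.31 without WT2_1 and 2.86 without WT2_2. The opposite course was taken by Glyma.17G105800-1, with 329.59 and 167 in DR2 leaves and 4027 and 4581 in WT2 leaves (-4.19 ± 0.33), and by Glyma.13G165300-1, with -3.69 ± 0.22. Not all PP2C proteins belong to the clade that acts on ABA signalling, and the family name does not tell them apart.

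In 3 families of transcription factors most of the listed transcripts rose. Of 26 transcripts of the NAC family, 19 rose and 1 fell, with a median of 4.55, and of 18 WRKY transcripts 13 rose and 3 fell, with a median of 3.65. The ERF and DREB list, factors with an AP2 domain, held 58 transcripts, of which 38 rose and 6 fell, with a median of 2.85. Most members had been listed as higher at DR1, 20 of the NAC, 14 of the WRKY and 41 of the AP2 transcripts.

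Among the single factors, Glyma.12G149100-1, an equivalent of RD26, a NAC activator of desiccation-responsive genes in Arabidopsis, had 180854 and 190767 in DR2 leaves, against 1359 and 53.6 in WT2 leaves. The study gives it a NAM domain, but not in the lists from which family names were taken, so it is outside the NAC list. The re-watered arrays differed widely for it, and its log2 change of 9.43 ± 1.20 was 11.76 without WT2_1 and 7.09 without WT2_2. Glyma.13G279900-1, an equivalent of ANAC055, had 113241 and 81529 in DR2 leaves and 1934 and 101 in WT2 leaves (7.77 ± 1.10), and Glyma.06G248900-1, also RD26-like, changed by 7.68 ± 0.87. The equivalents of WRKY40, a repressor of ABA-responsive genes in Arabidopsis, rose as well. Glyma.06G061900-1 had 1526 and 1492 in DR2 leaves and 38.0 and 16.3 in WT2 leaves, a log2 change of 5.93 ± 0.44. Glyma.04G061300-1 and Glyma.06G212900-1 changed by 5.62 ± 0.34 and 5.22 ± 0.29. Each of these was well above background on 1 of the 2 WT2 arrays, so the sizes rest in part on signal below detection. Glyma.20G155100-1, the DREB1A equivalent, had 2577 and 665 in DR2 leaves and 44.3 and 18.2 in WT2 leaves. Glyma.10G007000-1, the ERF1 equivalent of ethylene response, changed by 6.95 ± 0.67, and Glyma.04G042300-1, the MYB73 equivalent, by 8.47 ± 0.36.

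The lists of protective proteins held more rises than falls except that of the thaumatin-like proteins. Of 16 LEA transcripts 9 rose and 2 fell, with a median of 3.85, and 8 had been listed as higher at DR1. Glyma.03G144400-1, a LEA group 1 protein, had 209188 and 208159 in DR2 leaves against 8535 and 57.3 in WT2 leaves. The study gives it a LEA_1 domain, but not in the lists from which family names were taken, so it is outside the family list. Its log2 change of 8.22 ± 1.84 was 11.83 without WT2_1 and 4.61 without WT2_2. Glyma.U018200-1, a seed maturation protein equivalent to RAB28, had 5723 and 4765 in DR2 leaves and 48.0 and 17.3 in WT2 leaves (7.50 ± 0.62). It was well above background on 1 of the 2 WT2 arrays. Glyma.03G201200-1, of the LEA_2 family, is the equivalent of YLS9 (yellow-leaf-specific gene 9), also named NHL10. It had 12076 and 6154 in DR2 leaves and 53.6 and 46.4 in WT2 leaves (7.43 ± 0.35). Both WT2 values of these were low, unlike those of the group 1 protein. The falls were Glyma.02G197600-1 and Glyma.10G079900-1, of the LEA_2 family as well, with log2 changes of -4.35 ± 0.28 and -3.02 ± 0.28. LEA_2 is a family name, and whether these members act as protective proteins was not tested.

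Of 4 dehydrin and ABA_WDS transcripts, the second a family of small water stress proteins, 2 rose, and 4 rose without WT2_1. Glyma.20G167500-1 of ABA_WDS had 230230 and 283831 in DR2 leaves and 122673 and 49567 in WT2 leaves, and its change of 1.71 ± 0.42 stayed under the 4-fold limit. The heat shock list held 39 transcripts, mostly small HSP20 chaperones and 37 of them listed as higher at DR1, of which 22 rose and 1 fell, with a median of 2.29. Here the DR2 arrays differed, with summed intensities of 160998 on DR2_1 and 57483 on DR2_2, against 53967 on WT2_1 and 45947 on WT2_2, and without DR2_2 30 rose. Glyma.15G106700-1, an HSP20 protein, was the single fall, with 177 and 348 in DR2 leaves against 9519 and 12771 in WT2 leaves (-5.48 ± 0.35). Osmotin and other thaumatin-like proteins were mixed, with 1 of 8 higher and 2 lower, and with 3 higher without WT2_1 and 2 without either single DR2 array. The rise was that of the osmotin 34 equivalent, Glyma.11G025600-1, at least 226-fold higher, with 9597 and 3702 in DR2 leaves and no signal well above background in WT2 leaves.

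Most listed enzymes of protective sugars rose. Of 10 transcripts of trehalose phosphate synthases and phosphatases 8 rose and 2 fell, with a median of 4.42, and of 5 raffinose synthase transcripts 4 rose, with a median of 4.23. Glyma.17G067800-1, a trehalose phosphate synthase family member, had 44642 and 36901 in DR2 leaves, against 2414 and 269 in WT2 leaves (5.66 ± 0.83). Glyma.19G217700-1, a raffinose synthase, had 95381 and 110275 in DR2 leaves and 14042 and 737 in WT2 leaves, a log2 change of 4.99 ± 1.09 that was 7.12 without WT2_1 and 2.87 without WT2_2. The 4 transcripts annotated as equivalents of the aryl-alcohol or mannitol dehydrogenase ELI3-2 rose together, with log2 changes of 8.00 ± 0.44 (Glyma.16G096300-1), 7.92 ± 0.49 (Glyma.01G021000-1), 7.68 ± 0.40 (Glyma.08G280500-1) and 6.98 ± 0.38 (Glyma.07G175200-1). Glyma.07G175200-1 was well above background on 1 of the 2 WT2 arrays.

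Nearly all listed nuclear photosynthesis transcripts fell in DR2 leaves. All 13 light harvesting transcripts, all 16 of nuclear-encoded photosystem subunits and all 10 of thylakoid electron transport fell in DR2 leaves. Their medians were -7.09, -5.68 and -5.99. The last list was filled only through the PetM and ferredoxin-type family names, so it held no ATP synthase subunit. No transcript of these 3 lists rose, 0 of them at an unadjusted limma p under 0.05. Glyma.08G074000-1, the LHCB6 equivalent and an antenna protein of photosystem II, had 870.23 and 673 in DR2 leaves, against 141043 and 158840 in WT2 leaves, a log2 change of -7.61 ± 0.23 (adjusted p = 1.14e-06). Summed over the light harvesting list, the intensity was 11233 and 13785 on the DR2 arrays and 1060690 and 1106710 on the WT2 arrays. The DR2 sums lay far below the WT2 sums on both arrays.

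Subunits of the photosynthetic complexes were lower by similar amounts. Glyma.18G011800-1, the small photosystem II subunit PsbY, had 108 and 94.2 in DR2 leaves and 20301 and 19209.6 in WT2 leaves (-7.61 ± 0.22). The PetM subunits of the cytochrome b6f complex, Glyma.07G163600-1 and Glyma.20G008600-1, changed by -7.90 ± 0.32 and -7.87 ± 0.30. Glyma.13G204800-2, equivalent to the gamma subunit ATPC1 of the chloroplast ATP synthase, was at least 63.0-fold lower, with no signal well above background in DR2 leaves, against 2996 and 2719 in WT2 leaves. Of 11 transcripts of RuBisCO and the Calvin cycle 10 fell, with a median of -4.40. Glyma.08G365300-1, a RuBisCO small subunit, was at least 166-fold lower, and Glyma.07G142700-1, a fructose-1,6-bisphosphatase, had 411 and 262 in DR2 leaves, against 38051 and 41290.3 in WT2 leaves (-6.92 ± 0.27). Among those listed as lower at DR1 were 12 of the light harvesting, 14 of the photosystem, 10 of the thylakoid and 9 of the RuBisCO and Calvin cycle transcripts.

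Listed transcripts of chlorophyll synthesis and breakdown were called in different directions, as they had been in the first-drought lists that supplied them. All 6 of synthesis had been listed as lower at DR1, and of breakdown 5 as higher and 2 as lower. All 6 synthesis transcripts fell, with a median of -6.13, and 0 rose at an unadjusted limma p under 0.05. Glyma.12G052500-1, of the GUN4 family that promotes magnesium insertion into the chlorophyll precursor, had 77.5 and 79.3 in DR2 leaves, against 18871 and 17222 in WT2 leaves (-7.85 ± 0.24). Of 7 breakdown transcripts 5 rose and 2 fell. The Staygreen family, which holds magnesium dechelatases, split within itself, since Glyma.01G214600-1 had 58970 and 59949 in DR2 leaves and 5771 and 1175 in WT2 leaves (4.51 ± 0.61), whereas Glyma.04G243800-1 had 172 and 127 in DR2 leaves and 5191 and 6497 in WT2 leaves (-5.30 ± 0.24). Glyma.11G027400-1 rose like the first, by 4.44, and Glyma.17G132900-1 was at least 6.90-fold lower.

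**Figure D3:**
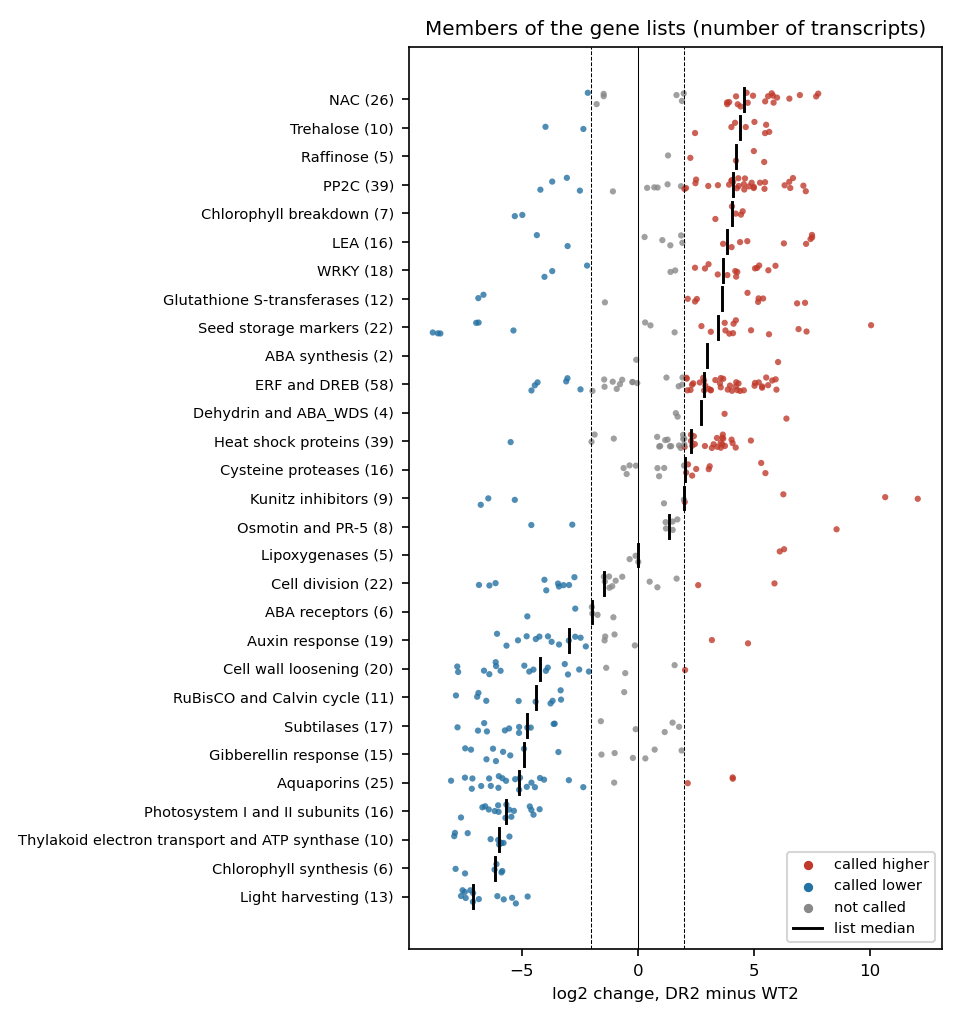
Log2 change, DR2 minus WT2, of every transcript of the nuclear gene lists, with the number of transcripts in brackets, the list median as a black bar and dashed lines at 4-fold. Light harvesting, photosystem, thylakoid and chlorophyll synthesis transcripts all lie to the left of the lower line, and NAC, WRKY, PP2C and trehalose transcripts lie mostly to the right of the upper one with a few members far to the left. The list labelled thylakoid electron transport and ATP synthase held no ATP synthase subunit.

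Water channels and growth genes were mostly lower. Of 25 aquaporin transcripts 21 fell and 3 rose, with a median of -5.11, and 18 had been listed as lower at DR1. Glyma.11G034000-1, the equivalent of the vacuolar water channel TIP2;2, had 43.1 and 54.1 in DR2 leaves, well above background on 1 array, against 11707 and 13787 in WT2 leaves (-8.04 ± 0.23). Glyma.01G208200-1, the same family, changed by -7.15 ± 0.22. Glyma.19G186100-1, another aquaporin, had 4824 and 3684 in DR2 leaves, against 141626 and 149497 in WT2 leaves. Glyma.03G185900-1 had 3996 and 3044 in DR2 leaves and 128351 and 143153 in WT2 leaves. The 3 rises, Glyma.12G023600-1, Glyma.11G097700-1 and Glyma.11G143100-1, had log2 changes of 4.09 ± 0.32, 4.08 ± 0.31 and 2.15 ± 0.33. With a summed intensity of 25161 and 27850 in DR2 leaves, against 365845 and 416750 in WT2 leaves, the list as a whole was far dimmer after drought.

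Of 20 cell wall loosening transcripts, expansins in the main, 16 fell and 1 rose, with a median of -4.23. Glyma.04G222100-1, an equivalent of expansin A8, had 124 and 71.1 in DR2 leaves, against 19399 and 21658 in WT2 leaves (-7.77 ± 0.30). A second of 3 expansin A8 equivalents, Glyma.06G143300-1, had 134 and 71.8 in DR2 leaves and 18757 and 23297 in WT2 leaves (-7.74 ± 0.31), and the third, Glyma.18G054000-1, changed by -6.62 ± 0.39. Glyma.17G101400-1 was the rise, with 2374 and 2339 in DR2 leaves and 1361 and 243 in WT2 leaves (2.03 ± 0.66). The list had 0 rises without WT2_2, without DR2_1 or without DR2_2, and 2 without WT2_1. Of 19 auxin response transcripts 13 fell and 2 rose, and of 15 gibberellin response transcripts 9 fell and 0 rose, with 1 higher at an unadjusted limma p under 0.05. Glyma.06G185300-1, a gibberellin-regulated GASA peptide, had 185 and 193 in DR2 leaves against 27242 and 39149 in WT2 leaves (-7.43 ± 0.27), and the IAA14 equivalent Glyma.10G180100-1, a repressor of auxin response, had 201 and 404 in DR2 leaves and 12615 and 16320 in WT2 leaves (-5.65 ± 0.34). Members of the cell division list were less uniform, with 10 of 22 lower and 2 higher. The falls included the tubulins Glyma.04G023900-1, with -6.84 ± 0.26, and Glyma.06G024100-1, with -6.39 ± 0.23.

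The listed proteases divided by class, largely as in the first-drought lists that supplied them. Of 17 subtilases, serine proteases of the cell wall space in large part, 12 fell and 0 rose, with 3 higher at an unadjusted limma p under 0.05. Glyma.06G045100-1, an equivalent of ARA12, was at least 138-fold lower, with no signal well above background in DR2 leaves, against 6356 and 6129.62 in WT2 leaves. Of 16 cysteine proteases 8 rose and 0 fell, also at an unadjusted limma p under 0.05, and without WT2_2 4 rose. At DR1 11 of the subtilases had been listed as lower and 3 as higher, and of the cysteine proteases 9 as higher and 4 as lower. Glyma.06G050700-1, a Peptidase_C13 or legumain-type protease of the vacuole, had 29281 and 32837 in DR2 leaves, against 4956 and 2666 in WT2 leaves (3.09 ± 0.31), and Glyma.20G183700-1, of the papain family, had 2572 and 2249 in DR2 leaves and 80.4 and 35.5 in WT2 leaves (5.49 ± 0.41).

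Glutathione S-transferases, which conjugate glutathione to toxic compounds, included 9 rises and 2 falls among 12 transcripts, and 6 rises without WT2_2. Glyma.15G252000-1, the GSTU19 equivalent, had 3915 and 3016 in DR2 leaves and 31.6 and 17.4 in WT2 leaves (7.20 ± 0.35). It was well above background on 1 of the 2 WT2 arrays. In contrast, Glyma.01G040200-1, the GSTU18 equivalent, had 134 and 128 in DR2 leaves and 13159 and 17855 in WT2 leaves (-6.87 ± 0.23). Lipoxygenases, which oxidise fatty acids on the way to jasmonate, were at a median of 0.02 over 5 transcripts, of which 2 rose. Both rises belonged to 1 locus, Glyma.13G030300, whose unique-exon entry had 6237 and 4031 in DR2 leaves and 55.0 and 74.1 in WT2 leaves (6.30 ± 0.30).

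The 83 plastid and 72 mitochondrial entries of the table were taken whole, with none chosen for a change. Of the plastid entries 32 fell, 38.6% against 14.9% of all transcripts, and 0 rose, with 1 higher at an unadjusted limma p under 0.05, and the median log2 change was -1.53. Of the mitochondrial entries 5 rose, 6.94% against 12.6% of all transcripts, and 0 fell, with 1 lower at an unadjusted limma p under 0.05, and the median was 0.99. Summed over the plastid entries the intensity was 2561890 and 2302830 in DR2 leaves, against 6046170 and 5778170 in WT2 leaves, and over the mitochondrial entries 507379 and 263117 in DR2 leaves, against 145927 and 141117 in WT2 leaves. The mitochondrial sum leaned on few entries, with atp9 at 116143 and the entries of orf172 at 50598, 52730 and 56278 on DR2_1. Some mitochondrial genes, such as orf172, had more than 1 entry, each counted apart.

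Within the plastid genome the response was graded. The entry of psbM, a small photosystem II subunit, had 2223 and 1980.36 in DR2 leaves, against 35578 and 43436 in WT2 leaves (-4.23 ± 0.23). The large subunit of RuBisCO, rbcL, had 27125 and 32719 in DR2 leaves and 211732 and 227506 in WT2 leaves (-2.88 ± 0.21), and atpB of the ATP synthase had 18065 and 17918 in DR2 leaves and 149566 and 170171 in WT2 leaves (-3.15 ± 0.20). Some entries differed little. The petD entry of the cytochrome b6f complex had 196367 and 179056 in DR2 leaves and 189361 and 185283 in WT2 leaves, and psaC of photosystem I had 57308 and 43745 in DR2 leaves and 48499 and 49301 in WT2 leaves. The psbA entry, the D1 reaction centre protein that is steadily replaced in the light, had 207856 and 189361 in DR2 leaves, against 110502 and 115325 in WT2 leaves, a log2 change of 0.81 ± 0.24 with an adjusted p of 0.0159 that stayed under the 4-fold limit. By function, 11 of 24 ribosomal protein entries, 5 of 15 photosystem II, 4 of 12 NADH dehydrogenase-like, 3 of 6 ATP synthase, 3 of 6 cytochrome b6f, 0 of 5 photosystem I and 0 of 4 RNA polymerase entries fell. Among the last 2 groups 4 and 1 entries were lower at an unadjusted limma p under 0.05. For 7 plastid genes there were 2 entries each, which need not measure the same sequence. For ycf1 one entry had 3554 and 3080.78 in DR2 leaves and 17103 and 17297 in WT2 leaves, and the other 89.5 and 22.6 in DR2 leaves and 63.0 and 71.1 in WT2 leaves.

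The mitochondrial rises rested more on DR2_1. The atp9 entry, the membrane ring subunit of the ATP synthase, had 116143 and 28405 on DR2_1 and DR2_2, against 2725 and 1903 on the WT2 arrays, a log2 change of 4.66 ± 0.56 (adjusted p = 0.000195). The rps12 entry had 20919 and 5010.43 in DR2 leaves and 1919.88 and 1467 in WT2 leaves (2.61 ± 0.57). Over all 72 entries the median distance from the WT2 mean was 1.54 on DR2_1 and 0.50 on DR2_2, and without DR2_2 15 entries rose, without DR2_1 1 and without WT2_2 2. The remaining 3 rises were open reading frames of unnamed function, orf110a, orf101a and orf110d.

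**Figure D4:**
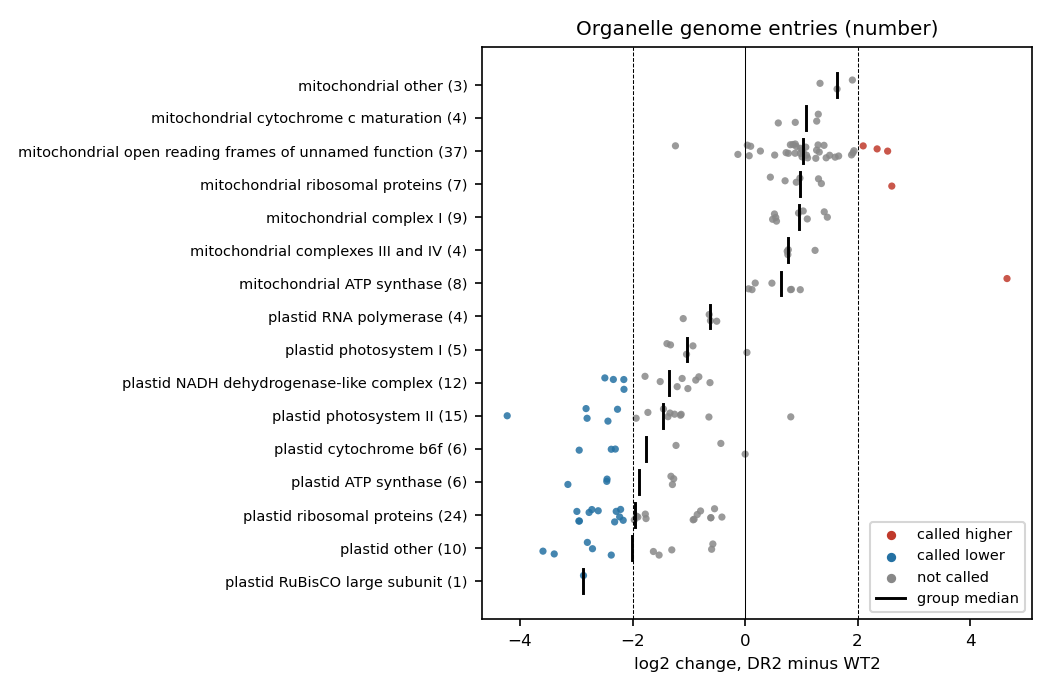
Log2 change, DR2 minus WT2, of the 155 organelle entries by functional group, with the number of entries in brackets, the group median as a black bar and dashed lines at 4-fold. Every plastid group has its median below 0 and every mitochondrial group above 0, and atp9 at 4.66 lies far from the rest.

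The second drought was set against the first, DR1 leaves against WT1 leaves, in the same fit. The 2 comparisons share no arrays, and each lay within its own slide. In the first drought 2153 transcripts were higher, 3.57% of those tested, and 2351 were lower, 3.89%, together 7.46%. Across the 60386 transcripts the SD of the log2 change was 2.05 for DR2 against WT2 and 1.17 for DR1 against WT1. Both changes correlated at a Pearson r of 0.632 and a Spearman rho of 0.589 across transcripts, which are not independent replicates. All 4 conditions were measured with the same probes.

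Transcripts called in the first drought mostly kept their direction. Of the 2153 first-drought rises 1454, 67.5%, were also higher in DR2 against WT2, 38 were lower and 661 were not called. Of the 2351 first-drought falls 1826, 77.7%, were also lower, 13 were higher and 512 were not called. Set the other way, these shared transcripts made up 19.1% of the rises and 20.3% of the falls at the second drought. Rises under 2-fold in the first drought numbered 4230 of the 7619, and falls under 2-fold 4260 of the 8983. The first-drought rises had a median log2 change of 2.99 for DR2 against WT2 and 2.88 for DR1 against WT1, and the first-drought falls of -3.57 and -2.58.

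The difference between the responses, DR2 minus WT2 less DR1 minus WT1, was tested directly with the same limits. It was positive for 4420 transcripts, 7.32%, and negative for 6037, 10%, together 17.3%. Among the transcripts called higher in DR2 leaves 3609 had a positive difference, and among those called lower 4904 had a negative one. Both counts share the DR2 minus WT2 term with the calls that chose the transcripts. A difference of the same sign is thus favoured in advance and adds no evidence. By list, 12 of 13 light harvesting, 15 of 16 photosystem, all 10 thylakoid and all 6 chlorophyll synthesis transcripts had a negative difference, so their fall was larger at the second drought. Glyma.08G074000-1, the LHCB6 equivalent, had log2 changes of -7.61 at the second and -2.31 at the first drought. Among all 3665 transcripts with a family name, 425 had a positive and 813 a negative difference. Of the 39 PP2C transcripts 9 had a positive difference and 0 a negative one, and of the 39 heat shock transcripts 0 had a positive and 6 a negative one, a share of negative ones below that of all 3665. All 5 lipoxygenase transcripts had a positive difference. Among them 3 had been listed as lower at DR1, such as Glyma.10G153900-1 with 1694 and 1806 in DR2 leaves and 2081 and 2403 in WT2 leaves.

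No more than 51 transcripts were called in opposite directions by the 2 droughts. The difference was called for all 51, which adds no evidence, since opposite calls already put it over its 4-fold limit. Some of the 38 that were higher at the first drought and lower at the second were not well above background on either DR2 array. Their fall has only a bound, in part under 4-fold, such as at least 1.96-fold for Glyma.06G216600-1. Of the 38, 5 entries belonged to the Glyco_hydro_32N family, which holds the sucrose-cleaving invertases. Among these, Glyma.11G030800-1 and the unique-exon entry of Glyma.05G056300-1 were below detection in DR2 leaves, at least 13.1-fold and 2.73-fold lower. Glyma.05G056300-1 had 92.7 and 142 in DR2 leaves, against 1918 and 706 in WT2 leaves, a log2 change of -3.34 ± 0.49, while its change at the first drought was 4.09. Glyma.01G211000-1 had 161 and 188 in DR2 leaves and 3322 and 2167 in WT2 leaves (-3.95 ± 0.38), against a change of 3.03 at the first drought. Another 3 were of the Acid_phosphat_B family, to which the soybean vegetative storage proteins belong. Glyma.07G014500-1 had 16271 and 31929 in DR2 leaves and 185664 and 205551 in WT2 leaves (-3.10 ± 0.32), with a change of 2.73 at the first drought, and Glyma.08G200100-1 had 5197 and 8662 in DR2 leaves and 88285 and 93559 in WT2 leaves (-3.76 ± 0.28). The 3 entries of SQAPI proteinase inhibitors took the same course, Glyma.14G038300-1 with -4.16 ± 0.25 at the second drought. The 13 with the reverse course included 3 entries of 2 amino acid transporter loci of the Aa_trans family and the Cu_bind_like copper protein Glyma.20G077900-1, which rose by 3.90 at the second drought.

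**Figure D5:**
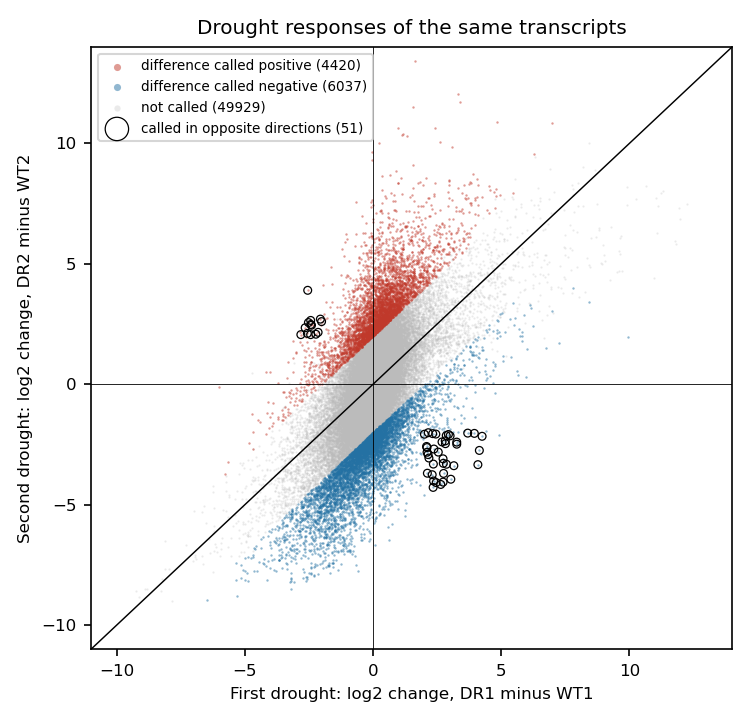
Log2 change at the second drought, DR2 minus WT2 (y axis), against that at the first drought, DR1 minus WT1 (x axis), of 60386 transcripts, with the diagonal of equal responses. The 4420 transcripts with a positive difference (red) lie above the diagonal, the 6037 with a negative one (blue) below it, and circles mark the 51 called in opposite directions.

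The share of calls differed little by chromosome. By chromosome, between 11.5 and 13.8% of transcripts were higher and between 13 and 16.4% lower in DR2 leaves. Among 6117 loci with 2 or more transcript entries 2179 had a call. In 881 of these all entries were called the same way, in 1289 only some were called, and in 9 the entries were called in both directions. Glyma.11G179600-1 had 50.7 and 65.3 in DR2 leaves, against 664 and 375 in WT2 leaves (-3.12 ± 0.34), while Glyma.11G179600-2 of the same locus had 4406 and 575 in DR2 leaves and 170.22 and 75.2 in WT2 leaves (3.82 ± 0.82). The pair Glyma.18G243100-1 and Glyma.18G243100-2, the second of the TAXi_N aspartic protease family, changed by 2.75 ± 0.26 and -3.61 ± 0.32. Entries of a locus can share sequence, and whether they were measured apart was not tested.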

How the data were processed

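RNA of soybean leaves was hybridised, with 1 colour (Cy3), to 8 arrays with 173177 probes, 2 arrays each for DR1, WT1, DR2 and WT2. Samples were grouped by title. The authors deposited a table of normalized intensities on a linear scale, 1 value per transcript and array, made with limma after background correction. The settings and the way probes were combined are not given in the sources used here. Log2 of these deposited values was used throughout. The authors also deposited the scanner intensities of each array with the flags of the Feature Extraction software, from which detection (a probe well above background) and 2 of the alternatives were taken.

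A mean per condition was fitted over the 8 arrays with limma 3.58.1 in R 4.3.3 (lmFit and eBayes, 4 residual and 3.909 prior degrees of freedom), with Benjamini-Hochberg adjustment over all 60386 transcripts. A call needed an adjusted p under 0.05 and a change over 2 on the log2 scale, which is over 4-fold. Every p and SE given is this fit's, and with only 2 samples a condition it measures the spread between these samples. That spread is pooled over the 4 conditions. Replicates lay closer in DR1 and WT1, with median SDs of 0.098 and 0.180, than in WT2 and DR2, with 0.250 and 0.270. Where 2 replicates lay far apart, the SE can thus understate their own spread. A transcript not well above background on either array of the dimmer condition got a lower bound. Its floor on each array was the lowest value among transcripts with all probes well above background there, or its own value if that was higher. In a simulation of 60386 transcripts, 200 of which differed by 3 log2 units, 156 were recovered for DR2 against WT2 with 3 false calls, and 99 for the difference between the responses with 4. All other transcripts were left unchanged and the noise was independent between transcripts and arrays. In the data 65.2% of transcripts had an adjusted p under 0.05, so these rates do not carry over to the calls made here.

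Family names and Arabidopsis equivalents came from the study's supplementary tables, as names only, and organelle symbols from RefSeq. All transcripts of a matching family formed a list. The lists for ABA breakdown, SnRK2 and ABF, proline, mannitol dehydrogenase, cytosolic and plastid ribosomal proteins of the nucleus and nodule markers had no member with a family name. Transcripts named in the text were drawn from the 10 largest rises and falls detected on all 4 arrays with no overlap of values, the 5 largest by lower bound in each direction, in each list the 3 largest changes and any member the study names, and the 5 largest differences between the responses in each direction. Other transcripts given beside these were picked with their values in view. The comparison, lists and rules were chosen with earlier results of these data known. The alternatives tried were another background correction and normalization, 2 scalings, a detection filter, log2(value + 16), a replicate block, each array left out, no unique-exon entries, other limits, limma's treat, a rule on both same-numbered pairs, and only the 4 arrays of 1 slide.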

Additional observations from a re-analysis of the deposited data

Results flagged for a closer look

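The response to the second drought (DR2 minus WT2) differed from that to the first (DR1 minus WT1) for 4420 transcripts in the positive and 6037 in the negative direction, tested as a difference of contrasts with limma at the same limits. Among the largest rises detected on all 4 arrays the difference on the log2 scale was 9.68 for Glyma.04G035000-1, 8.98 for Glyma.15G211500-1, 8.75 and 8.23 for the Kunitz inhibitors Glyma.08G235400-1 and Glyma.08G235300-1, 7.54 for Glyma.08G177200-1, 7.44 for the Cupin_1 protein Glyma.U020300-1, 3.84 for the ABA2 equivalent Glyma.11G180800-1 and 3.27 for Glyma.12G100500-1. The fitted difference was 11.80 for Glyma.01G217600-1, 9.95 for Glyma.13G278000-1, 9.81 for Glyma.07G258200-1, 9.67 for Glyma.11G198500-1 and 9.21 for Glyma.19G076800-1. None of these 5 was well above background on either WT2 array, so the values rest on signals below detection and give neither a size nor an order.

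Among transcripts called for DR2 against WT2, the 5 most negative differences were -7.43 for the invertase family transcript Glyma.05G056300-1, -7.15 for Glyma.15G127500-1, -7.08 for Glyma.08G295500-1, -6.98 for Glyma.01G211000-1, also of the invertase family, and -6.90 for the unique-exon entry Glyma.05G056300-1_UE, which was not well above background on either DR2 array. Glyma.15G127500-1 was well above background on 1 of the 2 DR2 arrays. Among the largest falls detected on all 4 arrays the difference was -4.97 for Glyma.06G084200-1, -3.99 for Glyma.06G067000-1, -3.48 for Glyma.09G231900-1 and -2.49 for Glyma.02G282300-1. The fitted difference was -5.27 for Glyma.01G078800-1, -4.96 for Glyma.01G002000-1, -4.93 for Glyma.06G070900-1, -3.14 for Glyma.05G216400-1 and -2.93 for the RuBisCO small subunit Glyma.08G365300-1. These 5 were not well above background on either DR2 array, so that their sizes and order are not given by these values. Of the 139 other transcripts named by the rules, 40 had a positive and 53 a negative difference. The largest rises and falls were chosen by DR2 minus WT2, which is part of the difference, so its sign in them adds no evidence. The 2 droughts were measured on separate slides at different plant ages, and the part of either in these differences was not tested.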

How the results depend on the processing

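The counts of calls moved most with the limits and with the normalization. At a limit of 2-fold 16266 transcripts were higher and 16911 lower in DR2 leaves, and the difference between the responses was positive for 10485 and negative for 12219. With normexp background correction and quantile normalization the counts were 4611 and 5498, and 2513 and 3344 for the difference. With treat at a 4-fold limit they were 3057 and 4472, and 528 and 831. Rises from below background on both WT2 arrays numbered 2241 at 2-fold, 290 after normexp, 781 with log2(value + 16) and 531 with treat, and falls to below background on both DR2 arrays 5153, 856, 1704 and 1384. Leaving out single arrays gave 6741 to 8601 rises and 8333 to 9833 falls, and 3813 to 6008 positive and 5371 to 7273 negative differences. The other alternatives kept these counts within 1.5 times, and no call for DR2 against WT2 turned to the other direction under any alternative fit.

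Same-numbered replicates of DR2 and WT2 did not deviate together, with a correlation of deviations of -0.032, so no pairing was assumed. Over all pairs of conditions it ranged from -0.266 (WT1 and WT2) to 0.219 (WT1 and DR1). With a replicate block 7626 transcripts were higher and 8985 lower, and it changed the call of none of the 174 named transcripts.

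Among the named transcripts, treat lost 11 calls, normexp 4 and the processed signal 1. Glyma.14G056300-1 lost its call without DR2_2 (-1.92) or WT2_2, Glyma.05G056300-1_UE without WT2_1 (-1.93), rps12 without DR2_1 (1.58) and orf110a without DR2_1 (1.44) or WT2_2. The sign of 2 uncalled changes was not stable. Glyma.05G140900-1 was at 0.042 after normexp, and between -1.18 and 1.04 with 1 array left out, and Glyma.20G234400-1 between -0.31 and 0.12. The lipoxygenase median was -0.097 without unique-exon entries, -0.052 with the processed signal, -0.023 with the deposited values scaled to the 75th percentile, and -0.089 to 0.131 with 1 array left out. The cause was not tested. Of the other list medians and settings 62 moved by more than the spread of the arrays and 381 did not.

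Each condition had 2 arrays, and the DR2 arrays were dimmer, with fewer probes well above background than the WT2 arrays, so transcripts dim in DR2 leaves have only bounds. Many changes lay close to the 4-fold limit, and their calls can turn with small shifts.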
